A study of Mus musculus with 6 samples.

Results

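The insulin-like growth factor family was followed through the array comparison of control and Pax6-deficient retinal progenitor cells (RPCs) as 10 genes, named by symbol. They were the ligand gene Igf1, the receptor genes Igf1r and Insr, the adaptor gene Irs1 and the binding protein genes Igfbp2, Igfbp3, Igfbp4, Igfbp5, Igfbp6 and Igfbp7. Every probe set whose platform annotation gave 1 of these symbols was taken, whatever its value. This gave 28 probe sets of 45037 tested and 10 of the 18193 genes that had a probe set of their own. All 10 genes were measured, and no filter on low values was applied.

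RNA came from GFP-positive distal RPCs sorted at E12 from mice on the ICR background. The 3 control pools were Pax6+/+; α-Cre and the 3 mutant pools were Pax6 loxP/loxP; α-Cre, so both groups carried the α-Cre transgene. Each pool held about 1800000 cells sorted from dissociated eyes and was hybridised to 1 Affymetrix array. The labels give the tissue as embryonic retina and optic cup and the study calls the pools biological replicates, and the p-values below measure the spread between these pools. In α-Cre, the P0 promoter of Pax6 and its peripheral retinal enhancer drive Cre and GFP. The floxed allele loses the start codon and the exons that encode the paired domain. The study also describes occasional patches in which the transgene is inactive.

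The array medians lay between 12.9 and 13.1 in linear intensity, or 3.68 and 3.71 on the log2 scale. Of the 5 Pax6 probe sets, 1425960_s_at fell, with log2 intensities of 6.34, 6.44 and 6.14 in control and 4.79, 4.88 and 4.45 in mutant pools. The log2 fold change of this Pax6 probe set was -1.60 (standard error, SE, of 0.13, limma adjusted p = 0.00329). For the remaining 4, Pax6 probe sets had log2 fold changes between -0.22 and 0.10 and were not called. The sources used here do not say which of them lie in the deleted part of Pax6, and one outside it checks nothing.

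As background, insulin-like growth factors are secreted ligands that bind a receptor tyrosine kinase at the cell surface and promote growth and survival. The receptor phosphorylates insulin receptor substrates, and these docking proteins pass the signal to phosphatidylinositol 3-kinase and AKT and to the MAP kinases. The binding proteins are secreted, hold the ligands with high affinity in the extracellular fluid, and can inhibit or prolong their action. Igfbp7 binds these ligands only weakly. In the developing eye, Igfbp genes are expressed in retinal, pigmented and surrounding tissues.

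For a probe set to be called, the change had to reach 1.5-fold, with p under 0.05 and a p adjusted over all probe sets by Benjamini-Hochberg under 0.10. These calls took 2.65% of all probe sets. Of the 28 probe sets of the family, 5 were called higher in Pax6-deficient RPCs, against 1.67% of all probe sets. None was called lower, against 0.984% of all probe sets. The called probe sets belonged to Igf1, Igfbp2, Igfbp3, Igfbp5 and Igfbp7, 1 each. The shares over all probe sets are not matched for intensity, and 5 of the 28 lay below the array median. The family was chosen with earlier results of these data known. By adjusted p alone, 10 probe sets of the family were higher and 0 were lower from limma, where all probe sets gave 5.04% and 4.55%. At an unadjusted p under 0.05 from limma, without the fold, 12 probe sets were higher and 1, that of Irs1, was lower.

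The direction was mixed across the family, with 19 probe sets above 0 and 9 below. The median log2 fold change was 0.10 over the 28 probe sets and -0.02 over all probe sets. In 14 of the 28, every mutant pool lay above every control pool, against 13.2% of all probe sets. In 3 of the 28 every mutant pool lay below, against 15.1%. Each gene taken by its brightest probe set, 3 of the 10 were called higher (Igfbp2, Igfbp3 and Igfbp7), against 2.28% of all genes, and their median log2 fold change was 0.28 against -0.01 over all genes.

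**Figure D1:**
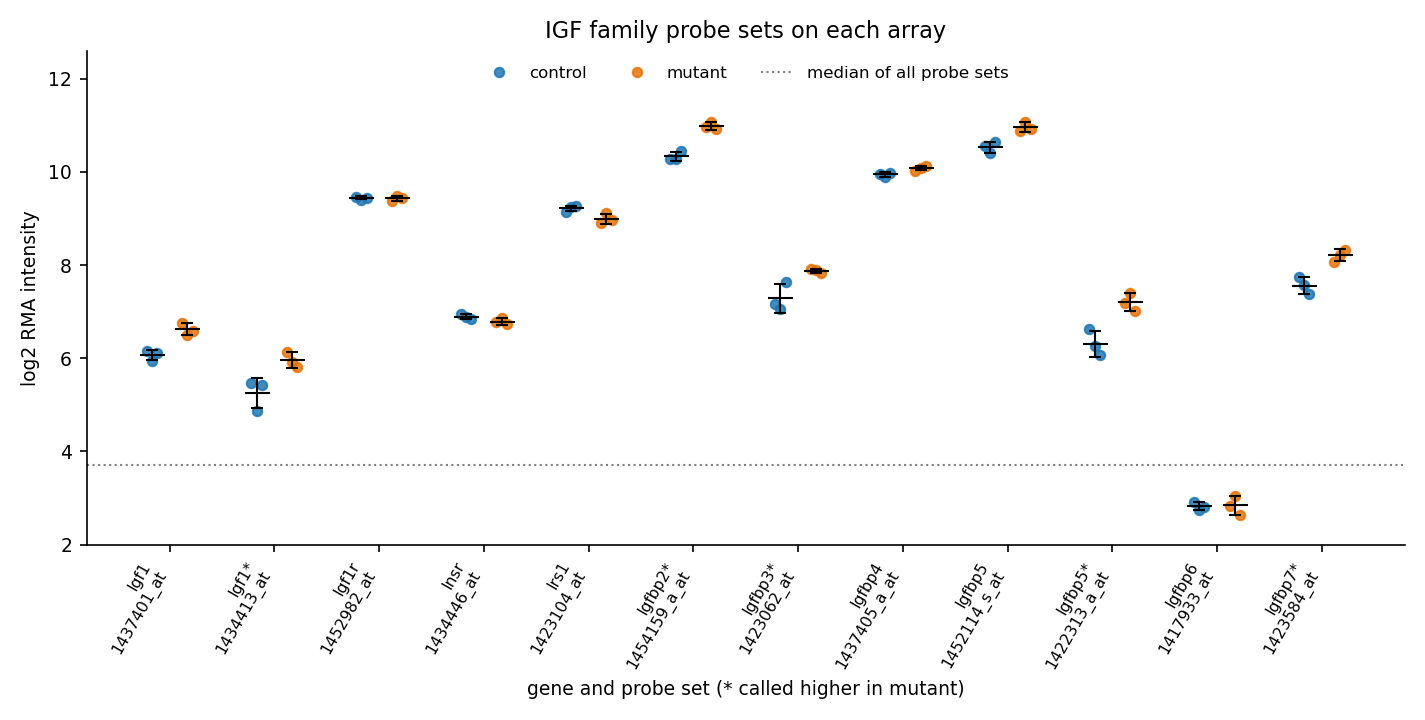
Log2 RMA intensity of family probe sets on each of the 6 arrays, for the called and brightest ones, with pools as points, bars for mean ± SD (n = 3) and a dotted line at the median of all probe sets. Igfbp2 in mutant pools, between 10.92 and 11.07, lay above control pools, between 10.27 and 10.44, while Igf1r 1452982_at overlapped.

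The windows directly before the start sites of the 5 genes with a called probe set are shown for the letters they hold, since these genes were higher in the same pools. RefSeq start sites of GRCm38.p6 were used, and each line gives the 250 bases before the start, 5′ to 3′ on the gene's strand. Capitals mark matches, on either strand, to any of 5 short motifs that are spelled out after the sequences. The windows were chr10:87860861-87861110 (+) for Igf1, chr1:72824230-72824479 (+) for Igfbp2, chr11:7213924-7214173 (-) for Igfbp3, chr1:72874866-72875115 (-) for Igfbp5 and chr5:77408046-77408295 (-) for Igfbp7.
Igf1: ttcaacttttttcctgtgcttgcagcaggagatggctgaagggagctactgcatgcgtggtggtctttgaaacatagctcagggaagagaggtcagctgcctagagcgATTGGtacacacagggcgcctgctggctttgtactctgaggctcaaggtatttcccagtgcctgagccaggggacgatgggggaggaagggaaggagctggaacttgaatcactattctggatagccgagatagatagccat
Igfbp2: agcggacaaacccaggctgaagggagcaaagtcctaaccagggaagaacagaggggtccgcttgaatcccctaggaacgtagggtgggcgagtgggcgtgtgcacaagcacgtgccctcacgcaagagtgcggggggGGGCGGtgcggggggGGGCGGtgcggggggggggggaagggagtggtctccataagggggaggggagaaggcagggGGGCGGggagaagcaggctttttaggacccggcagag
Igfbp3: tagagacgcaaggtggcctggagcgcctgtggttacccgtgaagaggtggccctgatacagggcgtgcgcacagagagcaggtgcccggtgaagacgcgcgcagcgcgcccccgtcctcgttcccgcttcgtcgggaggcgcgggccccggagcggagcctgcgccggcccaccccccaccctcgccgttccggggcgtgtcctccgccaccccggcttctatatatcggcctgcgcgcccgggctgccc
Igfbp5: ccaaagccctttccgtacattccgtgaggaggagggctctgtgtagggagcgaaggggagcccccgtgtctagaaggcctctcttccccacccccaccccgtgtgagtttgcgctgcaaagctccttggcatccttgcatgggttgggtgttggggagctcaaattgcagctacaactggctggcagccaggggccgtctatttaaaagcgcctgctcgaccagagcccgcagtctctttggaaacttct
Igfbp7: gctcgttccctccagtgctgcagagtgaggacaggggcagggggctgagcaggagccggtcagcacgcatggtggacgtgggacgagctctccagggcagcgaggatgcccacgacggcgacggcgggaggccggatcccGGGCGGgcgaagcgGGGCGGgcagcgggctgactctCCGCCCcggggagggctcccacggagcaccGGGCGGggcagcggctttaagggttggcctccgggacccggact

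A GC box was read as GGGCGG. The Igfbp7 window held 4 GC box matches and 74% G and C, and the Igfbp2 window held 3 matches and 67.2%. Igfbp2 had 2 windows, of which the first is shown. The Igf1 window held 1 CCAAT match and 52.8% G and C. The Igfbp3 and Igfbp5 windows held no match, with 73.2% and 58.8%. The median over all windows was 52.4%. Of 32851 windows, 32.7% held a GC box, 33.8% a CCAAT box and 12.4% a TATA box, read as the letters TATAAA.

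Windows were found for 9 of the 10 genes, and Insr had none. GC boxes lay in 4 of the 9 (Igfbp2, Igfbp7, Irs1 and Igf1r), CCAAT boxes in Igf1 and Igfbp6, and TATA boxes in Igfbp4 and Igfbp6. A core of the Pax6 paired-domain site, TTCACGC, lay in 0 of the 9 and in 1.03% of all windows. The homeodomain dimer site of Pax6, an inverted repeat of the homeodomain core with 3 bases between its arms, lay in 0 of the 9 and in 0.463% of all windows. The absence of these letters from a window says nothing about binding of the factor.

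Igf1 encodes a secreted growth factor that activates the Igf1r kinase. The called probe set 1434413_at of Igf1 had log2 intensities of 5.46, 4.88 and 5.42 in control pools and 6.14, 5.93 and 5.82 in mutant pools. All mutant pools lay above all control pools, with control replicate 2 well below its group. This Igf1 probe set had a difference of 0.71 on the log2 scale (SE 0.17, limma adjusted p = 0.0607), which is 1.63-fold. Igf1 1434413_at was not called without control replicate 2 (0.52), where the fold was under 1.5, or without mutant replicate 1 (0.62), 2 (0.73) or 3 (0.78), where the adjusted p was above 0.10.

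The brightest Igf1 probe set, 1437401_at, had log2 intensities of 6.15, 5.94 and 6.11 in control pools and 6.76, 6.50 and 6.59 in mutant pools. The groups of this Igf1 probe set did not overlap, and its log2 fold change of 0.55 (SE 0.09, limma adjusted p = 0.0216), 1.47-fold, was just under the fold threshold. Igf1 1419519_at, near the array median, had a log2 difference of 0.53 (limma adjusted p = 0.0294). Igf1 1452014_a_at had one of 0.38 (limma adjusted p = 0.114). Of the probe sets of Igf1 not called with all pools, 1437401_at was called without control replicate 1 (0.59) or mutant replicate 2 (0.61), and 1419519_at without mutant replicate 2 (0.59). All 4 Igf1 probe sets had their mutant pools above their control pools.

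Igf1r encodes the receptor tyrosine kinase for these ligands, and none of its 5 probe sets was called by limma or had an unadjusted p under 0.05. The brightest, 1452982_at of Igf1r, had log2 intensities of 9.47, 9.40 and 9.45 in control pools and 9.38, 9.49 and 9.44 in mutant pools. The groups overlapped, and the 95% interval of the log2 difference ran from -0.15 to 0.14. Of the other 4 Igf1r probe sets, 1426565_at had a log2 fold change of 0.07, 1428967_at of -0.10 and 1446303_at of -0.20 (limma adjusted p = 0.379 for the last). Igf1r 1452108_at lay below the array median, and all 5 had overlapping groups.

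Insr encodes the insulin receptor, a kinase related to Igf1r. Its brightest probe set, Insr 1434446_at, had log2 intensities of 6.94, 6.88 and 6.85 in control pools and 6.77, 6.86 and 6.73 in mutant pools. The groups overlapped at the edge, with 1 mutant pool inside the control range. The log2 fold change of Insr was -0.10 (95% interval from -0.26 to 0.05, limma adjusted p = 0.417). The other Insr probe sets, 1450225_at and 1421380_at, lay below the array median and gave -0.04 and -0.13, and all mutant pools lay below all control pools for the latter only.

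Irs1 encodes a docking protein phosphorylated by both receptors. Its 1 probe set, Irs1 1423104_at, had log2 intensities of 9.15, 9.24 and 9.26 in control pools and 8.90, 9.11 and 8.96 in mutant pools. Every mutant pool lay below every control pool. Irs1 had a log2 difference of -0.22 (SE 0.08, 95% interval from -0.40 to -0.04), with an unadjusted p of 0.0212 and an adjusted p of 0.153 from limma, so that Irs1 did not pass the test.

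Igfbp2 encodes a secreted binding protein with a particularly high affinity for the second ligand, Igf2. Its 1 probe set, Igfbp2 1454159_a_at, had log2 intensities of 10.27, 10.29 and 10.44 in control pools and 10.96, 11.07 and 10.92 in mutant pools. The groups did not overlap, and the SD was 0.09 in control and 0.08 in mutant pools. Igfbp2 rose by 0.65 on the log2 scale (SE 0.07, 95% interval from 0.48 to 0.83, limma adjusted p = 0.0081), which is 1.57-fold. Igfbp2 was called in all 6 comparisons that left out 1 pool, with log2 fold changes from 0.61 to 0.71.

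Igfbp3 encodes the binding protein that carries most of the ligand in adult serum. The called probe set, Igfbp3 1423062_at, had log2 intensities of 7.17, 7.05 and 7.65 in control pools and 7.91, 7.90 and 7.83 in mutant pools. Mutant pools were close together and above all control pools, and control replicate 3 lay nearer to them than to its own group. The log2 fold change of Igfbp3 was 0.59 (SE 0.15, limma adjusted p = 0.0709), 1.51-fold and just past the fold threshold. The same probe set was called in 1 of 6 comparisons that left out a pool, without control replicate 3 (0.77), and its value without the others ran from 0.47 to 0.62.

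The second probe set of Igfbp3, 1458268_s_at, had log2 intensities of 6.72, 6.71 and 7.09 in control pools and 7.39, 7.53 and 7.25 in mutant pools. Again control replicate 3 was the highest control pool, and the groups of Igfbp3 did not overlap. Its log2 fold change was 0.55 (SE 0.12, limma adjusted p = 0.0526), 1.47-fold and just outside the call, which Igfbp3 1458268_s_at passed without control replicate 3 (0.68) or mutant replicate 3 (0.62).

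Igfbp4 encodes a binding protein that generally inhibits ligand action, and none of its 6 probe sets was called, though at an unadjusted p under 0.05 limma put 2 higher. The brightest, Igfbp4 1437405_a_at, had log2 intensities of 9.96, 9.89 and 9.99 in control pools and 10.03, 10.09 and 10.12 in mutant pools. The groups did not overlap, but the log2 fold change was 0.13 (95% interval from -0.01 to 0.28, limma adjusted p = 0.273). All 6 Igfbp4 probe sets lay between 0.03 and 0.23. The highest of these values, 0.23 for Igfbp4 1421992_a_at, passed the adjusted p (0.0665 from limma) but not the fold.

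Igfbp5 encodes a binding protein that can attach to extracellular matrix. The called probe set, Igfbp5 1422313_a_at, had log2 intensities of 6.62, 6.26 and 6.07 in control pools and 7.18, 7.40 and 7.02 in mutant pools. The groups did not overlap, and the log2 fold change was 0.89 (SE 0.16, limma adjusted p = 0.0257), 1.85-fold and the largest among the 28. This Igfbp5 probe set was called without each pool in turn, with values from 0.76 to 1.04.

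The brightest probe set of Igfbp5, 1452114_s_at, had log2 intensities of 10.56, 10.40 and 10.63 in control pools and 10.88, 11.08 and 10.92 in mutant pools. Its groups did not overlap either. The log2 fold change of 0.42 (SE 0.09, limma adjusted p = 0.0408), 1.34-fold, passed the adjusted p and not the fold. The Igfbp5 gene was thus called by 1 of its 2 probe sets.

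Igfbp6 encodes a binding protein that prefers Igf2. Its 1 probe set, Igfbp6 1417933_at, had log2 intensities of 2.91, 2.74 and 2.81 in control pools and 2.84, 3.05 and 2.64 in mutant pools. These values lay below the array median, and the groups overlapped. For Igfbp6 the log2 difference was 0.02 (95% interval from -0.24 to 0.28, limma adjusted p = 0.943).

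Igfbp7 encodes a secreted protein of vessel walls and other matrices. Its brightest probe set, Igfbp7 1423584_at, had log2 intensities of 7.75, 7.57 and 7.37 in control pools and 8.07, 8.22 and 8.33 in mutant pools. The groups did not overlap. Igfbp7 rose by 0.65 on the log2 scale by this probe set (SE 0.11, limma adjusted p = 0.025), 1.57-fold. Igfbp7 was not called without control replicate 3 (0.55) or mutant replicate 3 (0.58).

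The probe sets of Igfbp7 disagreed. Igfbp7 1437804_at had log2 intensities of 4.39, 4.49 and 4.30 in control pools and 4.23, 4.27 and 4.28 in mutant pools, with mutant pools below control pools and a log2 fold change of -0.13 (limma adjusted p = 0.323). Igfbp7 1423585_at lay below the array median and had a log2 fold change of 0.10 (limma adjusted p = 0.567). With the median of the log2 values of a gene's probe sets on each array, Igfbp7 was at -0.13 and was not called. By the same measure Igfbp2 (0.65) and Igfbp5 (0.66) were called, and Igf1 (0.54) and Igfbp3 (0.57) lay under the fold threshold.

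**Figure D2:**
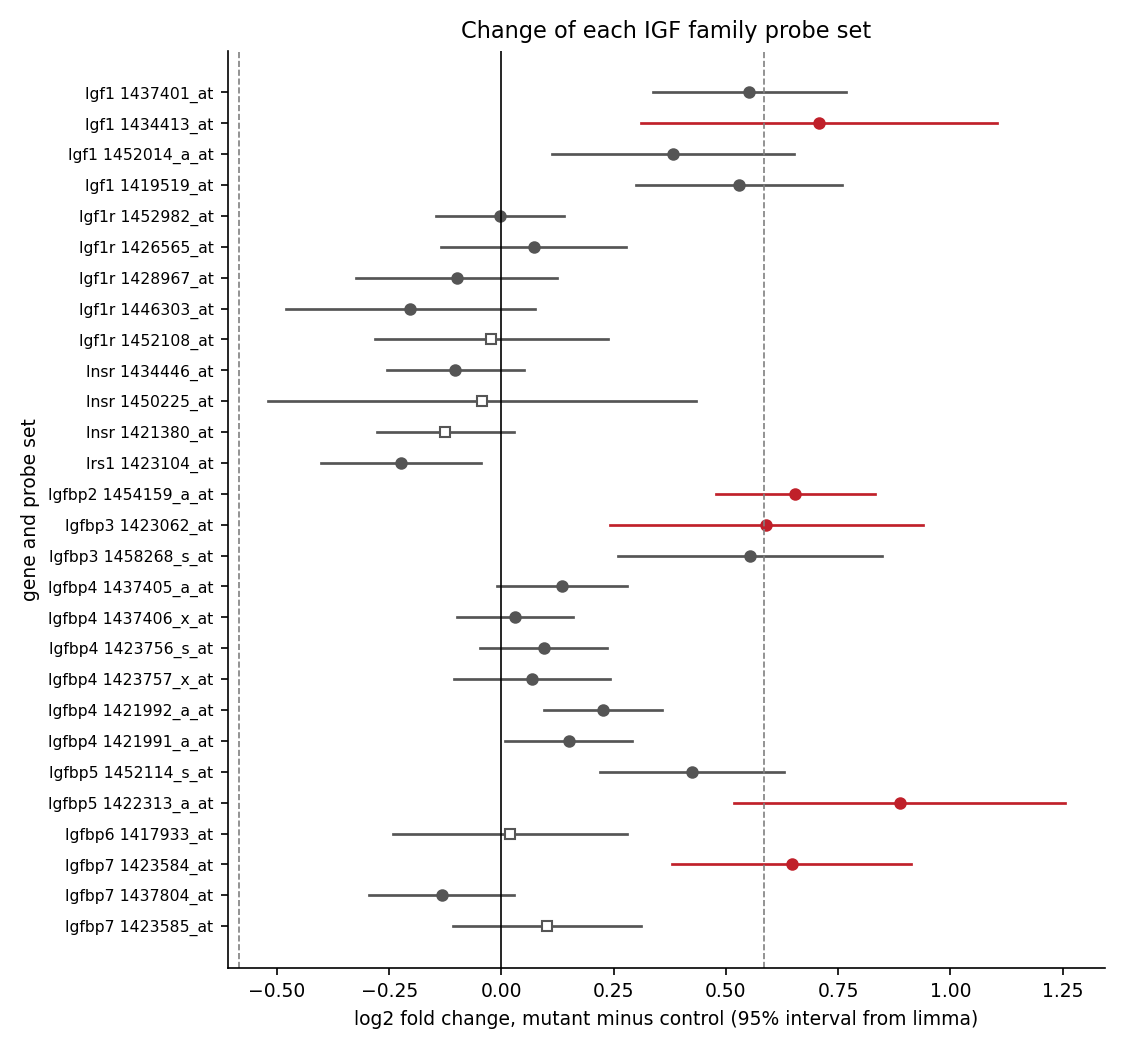
Log2 fold change, mutant minus control, of the 28 probe sets of the family, with bars for the 95% interval from limma and dashed lines at the 1.5-fold threshold, red for called probe sets and open squares for those below the array median. The called probe sets ran from 0.59 for Igfbp3 to 0.89 for Igfbp5, and those of Igf1r and Insr lay around 0.

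A list of 54 other genes of the pathway was read by brightest probe set, and 44 of them were measured. Of these, 0 were called higher (2.28% of all genes) and 1, Irs4, was called lower (0.918% of all genes). By adjusted p alone 3 were higher (Igf2, Irs2 and Stc1), where all genes gave 7.15%, and Irs4 alone was lower, where all genes gave 5.22%. At an unadjusted p under 0.05 from limma 6 were higher and 3 lower. The median log2 fold change of the 44 genes was 0.02.

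Irs4 encodes a docking protein of the same family as Irs1. Irs4 1441429_at had log2 intensities of 7.14, 7.35 and 7.18 in control pools and 6.12, 6.16 and 6.19 in mutant pools. The groups were far apart relative to their spread, and Irs4 was 2.09-fold lower in mutant pools (log2 fold change -1.06, SE 0.07, limma adjusted p = 0.00216). The second Irs4 probe set, 1422248_at, with a mean below the array median, had a log2 fold change of -0.43 (limma adjusted p = 0.131).

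Irs2, the other widely expressed docking protein gene, had log2 intensities of 7.10, 7.02 and 7.02 in control pools and 7.44, 7.82 and 7.53 in mutant pools. The groups did not overlap, and mutant replicate 2 was the highest pool. Irs2 had a log2 difference of 0.55 (SE 0.10, limma adjusted p = 0.0312), 1.47-fold and under the fold threshold, which it passed without mutant replicate 1 (0.63) or mutant replicate 3 (0.59). The 3 docking protein genes thus had values of -1.06 (Irs4), -0.22 (Irs1, not called) and 0.55 (Irs2, not called).

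Igf2, the second ligand gene, had log2 intensities of 11.06, 11.24 and 11.14 in control pools and 11.47, 11.46 and 11.37 in mutant pools. Its groups did not overlap, and the log2 fold change of 0.28 (SE 0.07, limma adjusted p = 0.0696) was far under the fold threshold. Igf2r, the receptor that clears Igf2, gave 0.08 (limma adjusted p = 0.696) with overlapping groups. Stc1, a stanniocalcin gene, named after its value was seen, had a log2 fold change of 0.37 (limma adjusted p = 0.0871), and its second probe set gave -0.12. The other stanniocalcin gene, Stc2, also named after its values were seen, gave -0.24 by its brightest probe set (limma adjusted p = 0.276). Further Stc2 probe sets gave -0.41 (limma adjusted p = 0.0318) and -0.10. Pappa, which encodes a protease of binding proteins, lay below the array median.

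Igfbpl1, a gene with a binding protein-like domain, had log2 intensities of 4.19, 4.75 and 4.94 in control pools and 4.20, 4.29 and 3.77 in mutant pools by its brightest probe set. The groups of Igfbpl1 overlapped, and the log2 fold change was -0.54 (limma adjusted p = 0.213). Its second probe set, Igfbpl1 1450960_at, lay below the array median and was called lower, with -0.72 (limma adjusted p = 0.0676). The 15 measured genes of the phosphatidylinositol 3-kinase, AKT and mTOR branch lay between -0.17 and 0.20, and none was called by limma, with 1 higher and 1 lower at an unadjusted p under 0.05. The 3 measured FOXO genes lay between 0.08 and 0.19, and none was called or had an unadjusted p under 0.05.

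**Figure D3:**
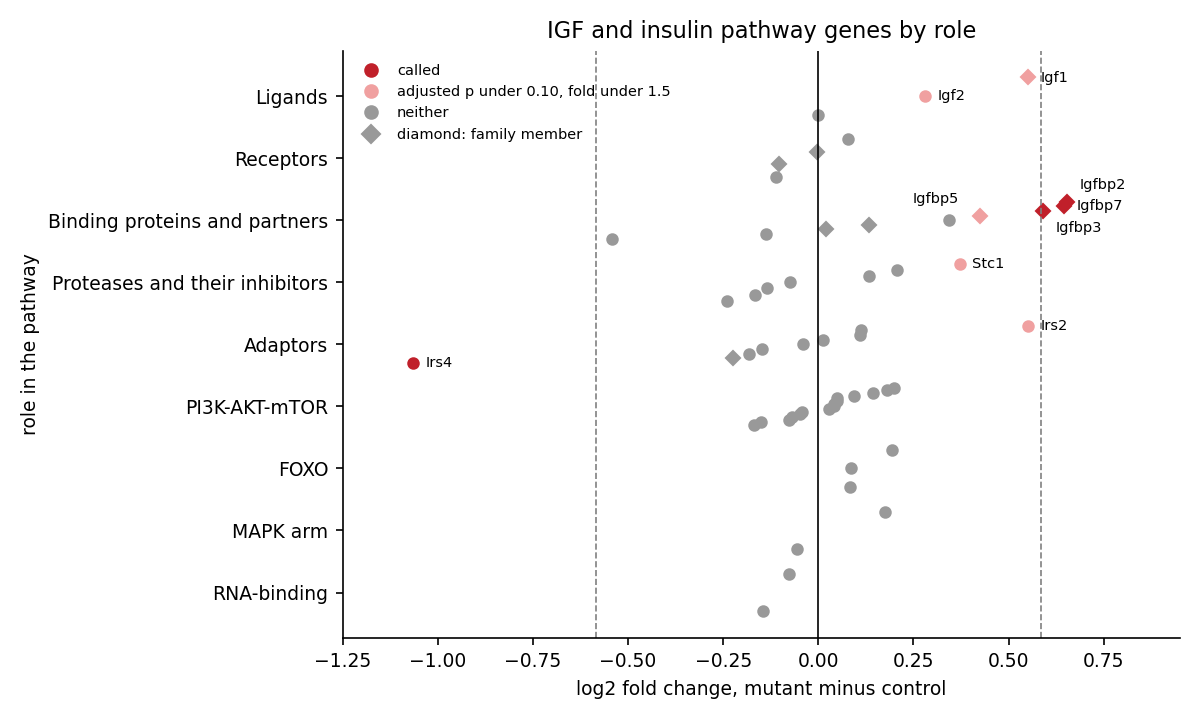
Log2 fold change, mutant minus control, of each pathway gene by its brightest probe set, in rows by role, with diamonds for the 10 family genes, dark red for called genes, light red for an adjusted p under 0.10 alone and dashed lines at the 1.5-fold threshold. Irs4 stands at -1.06, and the called genes past the upper line are the binding protein genes Igfbp2, Igfbp3 and Igfbp7.

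In the RefSeq gene order, Igfbp2 and Igfbp5 are next to each other on chromosome 1, which also holds Irs1. Igf1 is on chromosome 10, Igf1r on 7, Insr on 8, Igfbp4 on 11 and Igfbp6 on 15. The outer neighbours of Igfbp2 and Igfbp5 were Rpl37a, with a log2 fold change of 0.02 (limma adjusted p = 0.853), and Tnp1, below the array median. On chromosome 11, Igfbp3 lies between Igfbp1, below the array median, and Tns3, with 0.18 (limma adjusted p = 0.159). On chromosome 5, Igfbp7 lies between Polr2b, with -0.15 (limma adjusted p = 0.265), and Adgrl3, with 0.33 (limma adjusted p = 0.220). Of the measured neighbours of family genes, each by its brightest probe set, only Igfbp2, beside Igfbp5, was called, against 2.28% of all genes called higher. Igfbp2 is itself a family gene, already counted above. No measured neighbour outside the 10 family genes was called. Past the adjusted p and not the fold were Igfbp5, beside Igfbp2 (0.42, limma adjusted p = 0.0408), and Top2a, beside Igfbp4 (-0.36, limma adjusted p = 0.0205). Of all genes 7.15% were higher and 5.22% lower by adjusted p alone.

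Likeness of pattern was read as Pearson's r of log2 values over the 6 arrays, against 11263 genes with a mean above the median probe set. The arrays share the group difference, which enters every r. The nearest patterns were those of Cltb (0.999) and Rbm18 (0.997) to Igfbp2, of Enpp3 (0.997) and Tmsb10 (0.995) to Igfbp3, and of Nectin2 (0.995) and Lama2 (0.993) to Igfbp7. They were picked as the highest of 11263 values over 6 arrays, so an r this high does not show shared regulation. Log2 fold changes were 0.67 for Cltb, 0.60 for Enpp3 and 0.39 for Lama2. They were smaller for Rbm18 (0.11), Tmsb10 (0.09) and Nectin2 (0.16).

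In the mutant pools, 5 of the 28 family probe sets were called higher, against 1.67% of all probe sets. Markers of other eye tissues were higher in these pools too, each marker taken by its brightest probe set. By brightest probe set, 3 of the 10 family genes were called higher, against 2.28% of all genes, and 0.918% of all genes were called lower. Every mutant pool lay above every control pool in 13.2% of all probe sets. In bulk pools, fewer or more cells of a type and less or more RNA per cell cannot be told apart. Of 10 pigment epithelium markers 6 were called higher, among them Ttr (0.99) and Trpm1 (0.87), and Rpe65 (-0.03) alone lay below 0. The summed linear intensity of the 10 ran from 5898 to 7119 in control and 9436 to 9518 in mutant pools. Of 10 endothelial markers 4 were called higher, among them Cdh5 (1.23) and Tek (0.98), with all 10 higher in every mutant pool and sums from 691 to 918 and 1177 to 1259. Of 10 measured mesenchyme and neural crest markers 5 were called higher, among them Foxc1 (0.83) and Dcn (0.80), with sums from 585 to 625 and 908 to 1234.

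Of 11 lens and surface ectoderm markers 2 were called higher, Mip (0.98) and Epcam (0.67), with sums from 2814 to 4140 in control and 5126 to 5533 in mutant pools. Of 7 mural cell markers 2 were called higher, Pdgfrb (1.64) and Abcc9 (1.33), and of 4 measured erythroid markers 1, Hbb-bh1 (1.00). The control pools of both mural genes lay near or below the array median (Pdgfrb 3.11, 3.32 and 4.16, Abcc9 3.76, 3.53 and 3.82). Below 0 lay Rgs5 (-0.08) and Cspg4 (-0.08) of the mural list and Hba-a1 (-0.19) of the erythroid list. The mural sums ran from 877 to 978 in control and 1021 to 1225 in mutant pools, and the erythroid sums from 2773 to 4824 and 5424 to 6049. None of 9 macrophage markers was called by limma, none had an unadjusted p under 0.05, and their sums overlapped.

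Of 9 measured retinal progenitor markers 2 were called lower, Nr2e1 (-1.06) and Sfrp2 (-0.98), against 0.918% of all genes. Hes1 (0.06) lay above 0 and the other 8 below it, among them Six6 (-0.11) and Lhx2 (-0.12) with small changes. The sums of the 9 ran from 7239 to 7600 in control and 5153 to 5345 in mutant pools. Sfrp2 was the brightest of the 9 and weighed most in these sums, with mean log2 intensities of 11.66 in control and 10.68 in mutant pools. Acta2, named after its values were seen, gave most of the mural sum and was not called (log2 fold change 0.20, limma adjusted p = 0.268). Below the array median lay Rpe65 of the pigment epithelium, Bfsp1 of the lens, Foxc2 and Twist1 of the mesenchyme, Hba-a1 of the erythroid cells and 4 of the 7 mural markers (Rgs5, Cspg4, Kcnj8 and Anpep), and no marker was listed at 0. The part of these tissues in the values of Igf1, Igfbp2, Igfbp3, Igfbp5 and Igfbp7 was not tested.

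**Figure D4:**
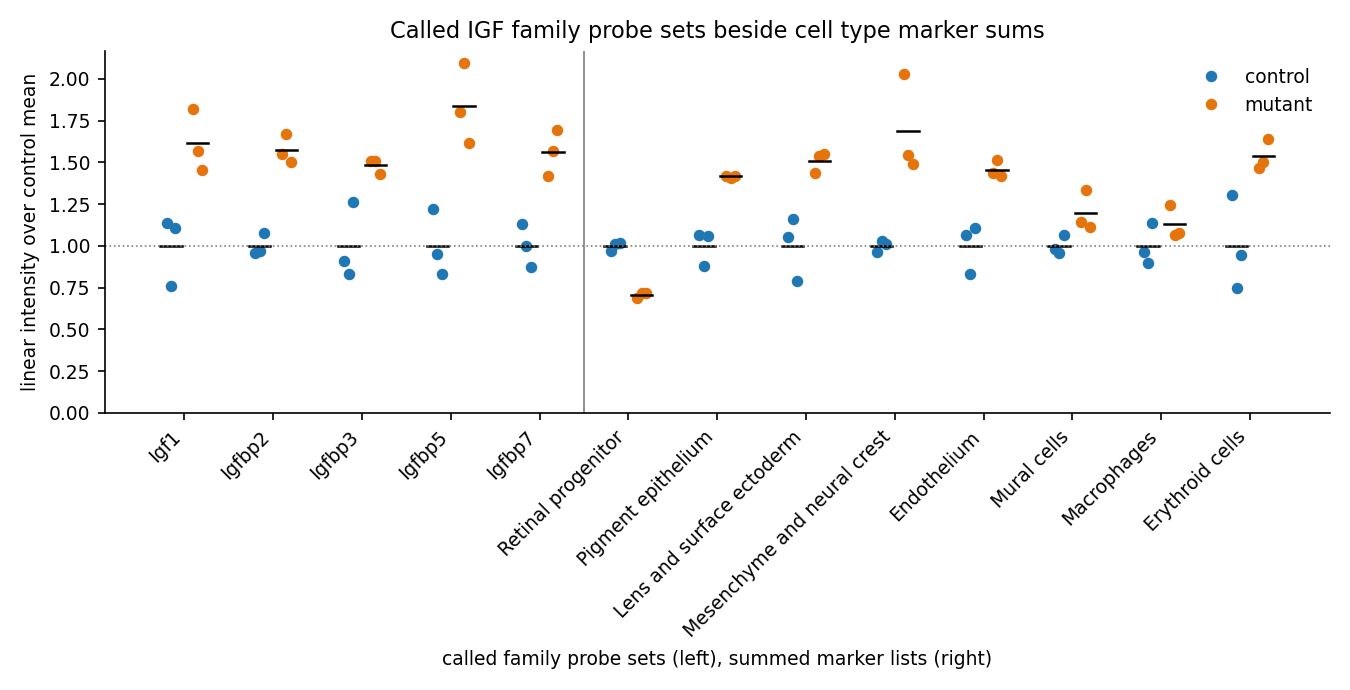
Linear intensity of the 5 called family probe sets (left) and summed linear intensity of each marker list (right) on each array, divided by the mean of the control arrays, with bars at group means. The retinal progenitor sum, in which Sfrp2 weighed most, lay at 0.69 to 0.72 of the control mean in mutant pools. The pigment epithelium sum lay at 1.41 to 1.42, while the macrophage sums overlapped.

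**Figure D5:**
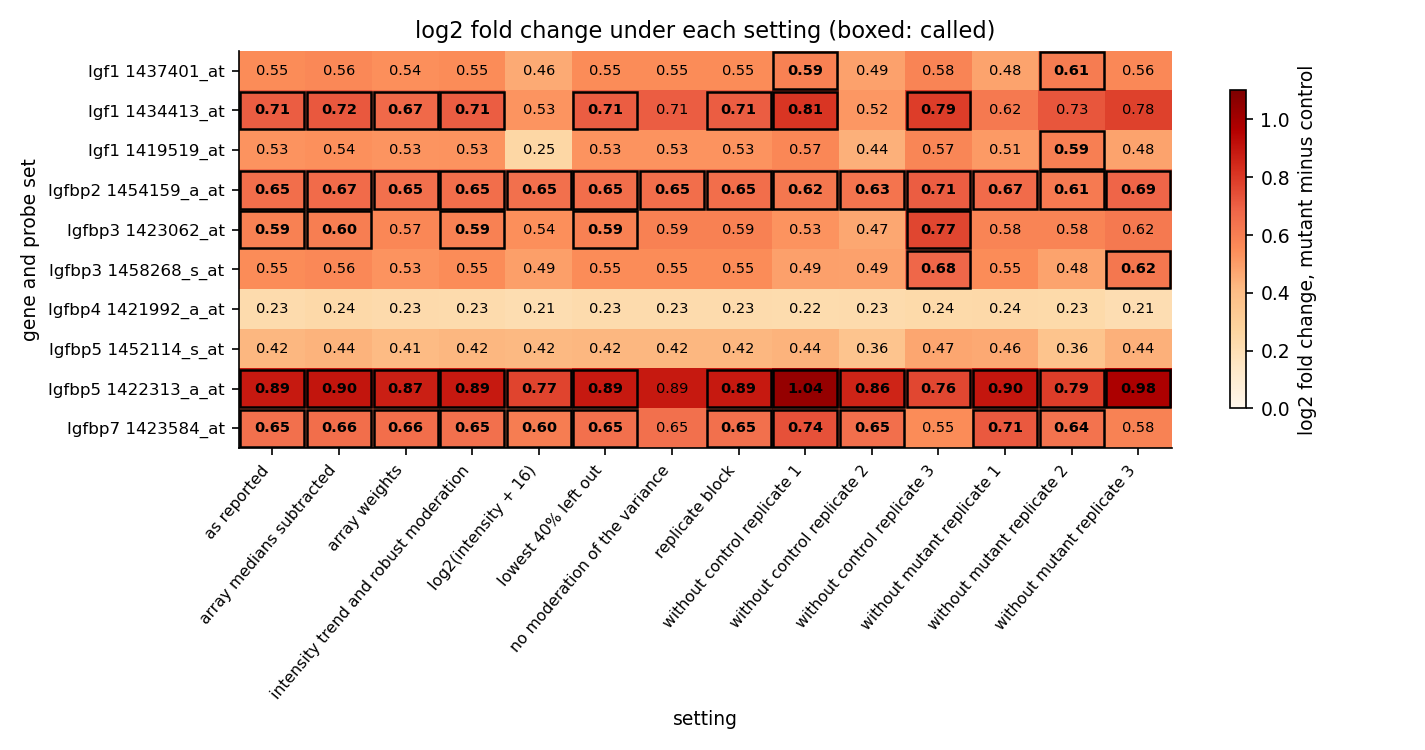
Log2 fold change, mutant minus control, of the 10 probe sets of the family with an adjusted p under 0.10, by processing setting, shown by colour and number, with a box where the probe set was called. Igfbp2 was called under all settings shown, Igfbp5 1422313_a_at under all but the fit without moderation, and Igfbp3 1423062_at in 5 of the 14 columns.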

How the data were processed

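Sorted distal RPCs of 3 control and 3 mutant pools were profiled on Affymetrix mouse expression arrays. The authors summarised probes into probe sets by RMA, with Affymetrix Expression Console named in the submitters' processing notes and versions not given in the sources used here. The values as deposited were intensities from RMA, not in log form. Log2 was taken, 64 control probe sets of 45101 were left out, and groups were compared with limma 3.58.1 (lmFit and eBayes) in R 4.3.3, with p-values adjusted over 45037 probe sets by Benjamini-Hochberg. RMA normalises the arrays to one distribution, so that only changes relative to it are seen. The call thresholds are those of the study's methods.

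Gene symbols came from the platform annotation, which gave 1 symbol for 34945 probe sets, several for 932 and none here for 9160. A gene's brightest probe set has the highest mean over the 6 arrays. The values of every array are given for called and for brightest probe sets of the family, and pathway genes were named when called or from a short list (Igf2, Igf2r, Irs2, Irs4, Igfbpl1 and Pappa). For each marker list, at most 2 called genes with the largest fold are named. The 2 genes most like each member called by its brightest probe set are given. Members and lists were chosen with earlier results of these data known. Only the limma fit and the call rule were tested on simulated data. Arrays have no read depth, and their number limits the precision. Alternatives covered scaling, low values, the log scale, the variance, array weights, a replicate block, the probe set of a gene, the call rule and leaving out each pool.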

Additional observations from a re-analysis of the deposited data

How the results depend on the processing

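Array medians subtracted, array weights, an intensity trend with robust moderation, the lowest 40% of probe sets left out and the replicate number as a block kept the count over all probe sets within 1.5 times of 1195 and called 4 or 5 probe sets of the family and Irs4 among the other pathway genes. With log2(intensity + 16), 517 probe sets were called, 3 of them of the family, and without moderation of the variance 460 and 1 (Igfbp2). Without a fold threshold 4317 were called, 10 of the family and 4 of the pathway genes. By brightest probe set 3 genes of the family were called and by the median of probe sets 2, where 2 pathway genes were called (Irs4, -0.75, and Igfbpl1, -0.63). Leaving out 1 pool gave 886 to 1232 probe sets, 3 to 5 of the family and 1 or 2 pathway genes, the second being Igfbpl1 without control replicate 1 and Irs2 without mutant replicate 1 or 3. These were not always the same probe sets: without mutant replicate 3, 2 of the 5 calls were kept and 1 other was gained (Igfbp3 1458268_s_at), without mutant replicate 2, 3 were kept and 2 gained (both of Igf1), and without control replicate 1 or 3, 4 were kept and 1 gained. The family count was 3 when control replicate 2 was left out, and likewise for mutant replicates 1 and 3. With the replicate block 1136 probe sets, 4 of the family and 1 pathway gene were called, and Igfbp3 1423062_at was lost (limma adjusted p = 0.11). The sample titles number the pools and do not say whether same-numbered pools were paired. Their deviations from the group means had r of -0.0106, -0.000638 and -0.00848 over all probe sets. With 3 pools per group and low probe sets included, these values cannot exclude a pairing. Igfbp3 was also lost with array weights and log2(intensity + 16), and Igf1 1434413_at with log2(intensity + 16). The causes were not tested.

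Signs turned only for probe sets that were never called and whose log2 fold changes with all pools lay between -0.04 and 0.02. Insr 1450225_at, below the array median, did not stay near 0 when 1 pool was left out. Igf1r 1452982_at was at 0.0073 with array medians subtracted, 0.011 without control replicate 1, 1.8e-05 without control replicate 3 and 0.024 without mutant replicate 1, and leaving out 1 pool gave -0.031 to 0.024. Igf1r 1452108_at was at 0.10 without control replicate 1 and ranged from -0.087. Insr 1450225_at was at 0.20 without control replicate 1 and 0.0087 without mutant replicate 2, and ranged from -0.19. Igfbp6 1417933_at was at -0.0033 with array weights, -0.020 without control replicate 2 and -0.085 without mutant replicate 2, and ranged to 0.12.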
